A study of Mus musculus with 23 samples.

Results

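The regulators of mitochondrial biogenesis described here are 10 mouse genes. They were matched by symbol to the Ensembl gene IDs of the deposited count table, which holds 55573 IDs, and all 10 were among the 13049 genes with enough counts to be tested. They comprise the coactivators Ppargc1a, Ppargc1b and Perm1, the estrogen-related receptors Esrra, Esrrb and Esrrg, the peroxisome proliferator-activated receptors Ppara and Ppard, the nuclear respiratory factor Nrf1 and the mitochondrial DNA factor Tfam. Messenger RNA of the quadriceps was sequenced from C57BL/6J mice (C57Bl6 in the labels) of 8 to 10 weeks that had carried a slow-release pellet for 14 days and were fasted for 5 hours before sampling. The pellet held 50 mg corticosterone with 50 mg cholesterol, or, as vehicle, 100 mg cholesterol. Corticosterone is the main glucocorticoid of mice. There were 6 vehicle-treated females, 5 corticosterone-treated females, 6 vehicle-treated males and 6 corticosterone-treated males, and mice are named by sex and number (F1, M1). The comparisons address whether the regulators responded to corticosterone in each sex, and whether the sexes differed.

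Mitochondrial biogenesis needs genes of the nucleus and of the mitochondrial genome to be expressed together. PGC-1α, the product of Ppargc1a, is induced in muscle by exercise, fasting and cold. It does not bind DNA itself but is recruited by transcription factors such as the estrogen-related receptors (ERRs), the PPARs and NRF1, which switch on genes for respiration and fatty acid oxidation. NRF1 also acts on Tfam, whose product packs mitochondrial DNA and starts its transcription. Oxidative slow and type 2A fibers are rich in mitochondria, and fast glycolytic fibers, which make up most of the mouse quadriceps, are poor in them.

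Between 20904150 and 21984477 read pairs per mouse fell on genes, so depth differed little. Xist had 2410 to 5141 counts in females and at most 91 in males, while 4 genes of the Y chromosome together had at least 2300 counts in males and at most 21 in females, as labelled. Every mouse had fast glycolytic fiber transcripts in bulk, the 6 markers summing to between 60715 and 197726 counts per 1000000 (CPM). The transcript of the type 2A myosin Myh2 was scarce in F9, M8 and M9, at 18.2 to 30.4 CPM, against at least 240.7 CPM in the other mice. Liver transcripts were high in F6, F10, M8, M9 and M12, where albumin mRNA reached 822 to 1876 CPM, against at most 224 CPM elsewhere. Results were therefore also computed without each of these sets of libraries. In whole muscle, fewer cells of a type and less RNA per cell cannot be told apart.

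The stretches of DNA just before the start of 4 of the genes are shown in full, for Perm1 and Ppargc1a because they hold a motif tied to this pathway, and for Esrra and Nrf1 because these transcripts separated treated from untreated males. They come from RefSeq (GRCm38.p6), run 5′ to 3′ on the strand of the gene and stop before the first annotated exon base. Capitals mark a motif match. In Perm1 it is the ERR element AAGGTCA, read on the other strand, and in Ppargc1a the core TGACG of the cAMP response element, also read on the other strand. The Perm1 stretch is chr4:156215677-156215867 on the plus strand and the Ppargc1a stretch chr5:51567727-51567975 on the minus strand. The Esrra stretch is chr19:6921814-6922058 on the minus strand and the Nrf1 stretch chr6:30047738-30047987 on the plus strand.
Perm1: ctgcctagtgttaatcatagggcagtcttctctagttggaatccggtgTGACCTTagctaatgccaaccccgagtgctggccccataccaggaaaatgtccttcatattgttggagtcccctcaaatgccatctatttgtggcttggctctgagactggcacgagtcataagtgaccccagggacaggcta
Ppargc1a: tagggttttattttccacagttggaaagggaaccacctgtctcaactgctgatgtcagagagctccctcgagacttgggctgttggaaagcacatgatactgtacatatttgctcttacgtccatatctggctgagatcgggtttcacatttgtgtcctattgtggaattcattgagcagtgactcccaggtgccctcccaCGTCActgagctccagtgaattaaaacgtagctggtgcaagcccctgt
Esrra: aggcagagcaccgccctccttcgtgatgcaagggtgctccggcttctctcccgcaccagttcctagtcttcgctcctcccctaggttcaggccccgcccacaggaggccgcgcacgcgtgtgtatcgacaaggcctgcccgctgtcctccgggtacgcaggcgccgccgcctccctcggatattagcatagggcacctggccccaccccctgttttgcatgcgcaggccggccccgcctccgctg
Nrf1: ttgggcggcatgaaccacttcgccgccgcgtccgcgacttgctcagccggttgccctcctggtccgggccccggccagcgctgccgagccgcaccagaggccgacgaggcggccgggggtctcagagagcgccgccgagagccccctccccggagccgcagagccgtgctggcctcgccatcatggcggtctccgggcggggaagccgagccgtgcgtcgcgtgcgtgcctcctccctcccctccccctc

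Base composition differed between these promoters. Over the whole 300-base window, of which 250 bases lie before the start and 50 after it, G and C made up 48.7% in Ppargc1a and 52.3% in Perm1, against 66.0% in Esrra and 77.0% in Nrf1. Windows were at hand for 9 of the 10 genes, 14 windows in all, and not for Ppargc1b. The motifs were searched as exact letters on both strands. AAGGTCA was in 1 of the 14 windows, that of Perm1, at bases -202 to -196 from the start, and in 4.72% of the 32851 windows of all genes. TGACG was in 4 windows, those of Ppargc1a, Esrrb, Ppara and Ppard, and in 20.8% of all windows. The glucocorticoid receptor hexamer AGAACA was in 3 windows, those of Tfam and of the second starts of Nrf1 and Esrrb, and in 19.0% of all. The NRF1 motif, GCGCA followed by any base and GCGC, was in the Ppara window alone, and in 4.6% of all. The full cAMP response element TGACGTCA (1.79% of all windows), the PPAR direct repeat AGGTCANAGGTCA (0.0396%) and the E-box CACGTG (7.15%) were in none of the 14. TGACG also lies within TGACGTCA. These are matches of letters and not measured binding.

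The 10 transcripts spanned a wide range of levels. To compare them, CPM was divided by the exon length of the gene in kilobases (FPKM). Among the 12 vehicle-treated mice, Perm1, a muscle protein induced by PGC-1α and the ERRs, had the highest level at 47.0 ± 17.9 FPKM (SD), followed by Esrra at 30.7 ± 5.28 FPKM. Perm1 was above Esrra in 9 of the 12 mice, and their ranges overlapped. Tfam came next at 10.4 ± 0.899 FPKM and overlapped with neither neighbour. Ppargc1a had 4.99 ± 1.46 FPKM, Ppard 3.72 ± 0.401 FPKM and Esrrg 3.38 ± 2.43 FPKM, with overlapping ranges. Ppargc1b (1.66 ± 0.473 FPKM), Ppara (1.59 ± 0.630 FPKM), Nrf1 (0.997 ± 0.0797 FPKM) and Esrrb (0.904 ± 0.691 FPKM) were the lowest and overlapped each with the next. Exon length was taken over all annotated exons, so that alternative exons lower the FPKM of a gene, and Nrf1 had the longest at 10282 bases.

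In males, corticosterone lowered Esrra and Ppargc1b and raised Nrf1 and Ppard. These 4 of 10 regulators passed an adjusted p of 0.01 in edgeR's quasi-likelihood test, beside 26.3% of all genes tested. Both directions held 2 genes, beside 13.2% of all genes higher and 13.1% lower. The median log2 fold change (log2FC) of the 10 was -0.35, against -0.02 over all genes, and 8 of the 10 had a log2FC below 0, as had 51.9% of all genes. At an unadjusted p under 0.05 there were 5 of 10, with Perm1 added, beside 48.2% of all genes. In females none of the 10 passed, beside 13.4% of all genes. There, 3 of 10 had an unadjusted p under 0.05 (Ppargc1b, Esrra and Tfam), as had 38.6% of all genes, DESeq2 called 0 and limma-voom called Tfam. The female median was 0.016, against 0.035 over all genes.

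**Figure D1:**
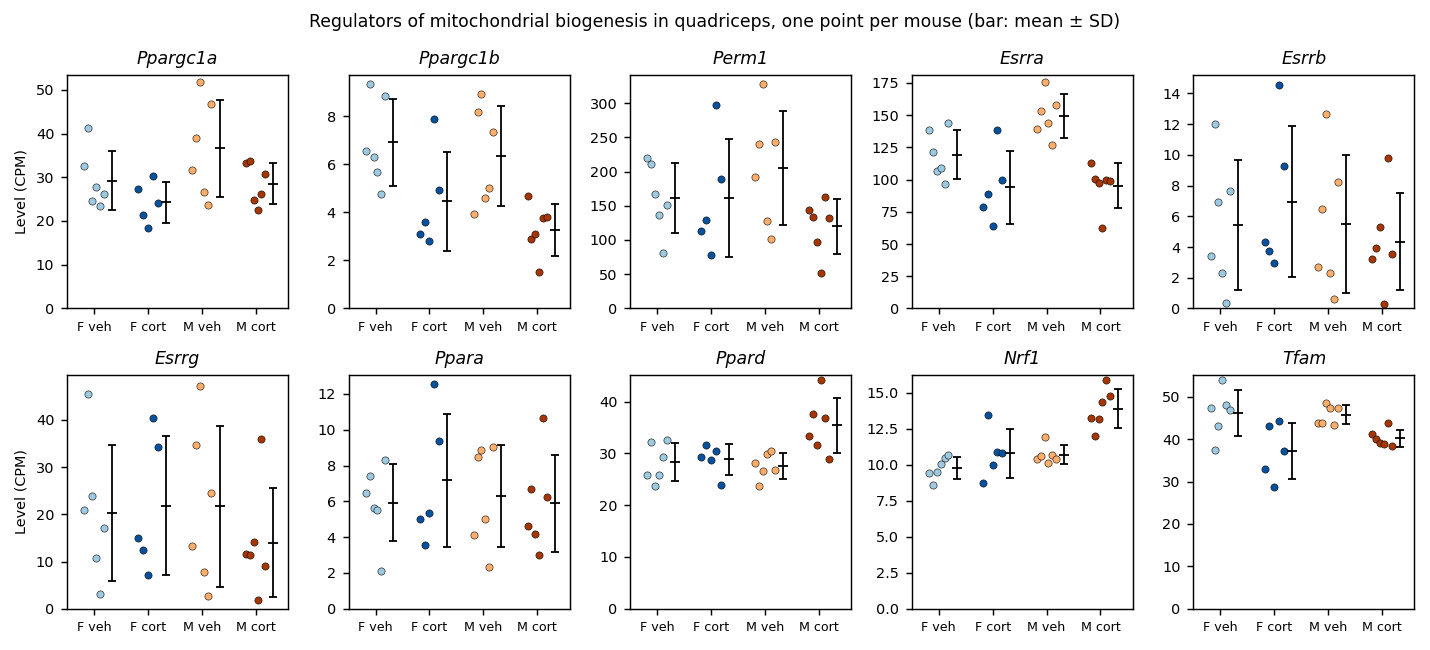
Level of the 10 regulators in each mouse (vertical axis, CPM from 0), by group on the horizontal axis (F, female; M, male; veh, vehicle; cort, corticosterone), with the mean and SD as a bar beside the points. In males the Esrra points of the 2 groups do not overlap, while the Esrrb and Esrrg points are widely spread within the groups.

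Among the coactivators, Ppargc1b, which encodes PGC-1β, a relative of PGC-1α that also drives mitochondrial genes, was lower in corticosterone-treated males. Its values ran from 3.93 CPM (median 6.20) to 8.95 CPM with vehicle, and from 1.5 CPM (median 3.42) to 4.69 CPM with corticosterone. All 6 treated males lay below the vehicle mean, and only M2 overlapped with the vehicle range. The log2FC was -0.95 (SE 0.28, adjusted p = 0.00986 in edgeR's quasi-likelihood test), close to the threshold, and 24 of 33 alternatives lost the call, 17 of them by leaving out 1 mouse. With counts of 34 to 218 per mouse it is also among the least deeply measured of the 10.

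In females, Ppargc1b had 2.83 CPM in F6, 3.09 in F2, 3.61 in F4, 4.93 in F10 and 7.87 in F8, against 4.79 CPM (median 6.42) to 9.35 CPM with vehicle. F2, F4 and F6 were below every vehicle-treated female, F10 was near the lowest and F8 was within the upper range. The log2FC of -0.63 (SE 0.29) had an adjusted p of 0.110 in edgeR's test, and it ran from -0.94 to -0.52 on leaving out F8 or F6. The difference between the male and the female response was -0.32 (95% interval -1.14 to 0.51, adjusted p = 0.611 in edgeR's test).

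Ppargc1a (chr5:51454250-51567726) showed no change past the threshold in either sex. Male values ran from 23.7 CPM (median 35.3) to 51.8 CPM with vehicle and from 22.5 CPM (median 28.5) to 33.8 CPM with corticosterone. All 6 treated males were below the vehicle mean, but within or just below the vehicle range. The log2FC was -0.36 (SE 0.18, 95% interval -0.73 to 0.02, adjusted p = 0.122 in edgeR's test). It ran from -0.46 without M9 to -0.23 without M5, the vehicle-treated males with the lowest and the highest value. Treated females had 18.4 CPM in F6, 21.3 in F4, 24.2 in F10, 27.3 in F2 and 30.3 in F8, against 23.4 CPM (median 26.9) to 41.3 CPM with vehicle. The groups overlapped, and the female log2FC was -0.27 (95% interval -0.66 to 0.13, adjusted p = 0.318 in edgeR's test).

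Perm1 (chr4:156215868-156221307) was the most abundant of the 10 and varied strongly. With vehicle, males ranged from 101.8 CPM (median 216) to 328 CPM, and with corticosterone from 51.1 CPM (median 133) to 163 CPM. Every treated male lay below the vehicle mean, with overlap between the groups. The log2FC of -0.77 (SE 0.33, 95% interval -1.46 to -0.09) had an unadjusted p of 0.0282 and an adjusted p of 0.0660 in edgeR's test. Females had 77.9 CPM in F6, 113 in F2, 129 in F4, 189 in F10 and 298 in F8, against 81.0 CPM (median 159) to 220.2 CPM with vehicle. F8 was above and F6 below all vehicle-treated females, and the female log2FC was 0.0040 (95% interval -0.71 to 0.72). Without F8 it was -0.34 and without F6 0.17. The responses of the sexes differed by -0.78 (95% interval -1.76 to 0.21, adjusted p = 0.260 in edgeR's test).

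**Figure D2:**
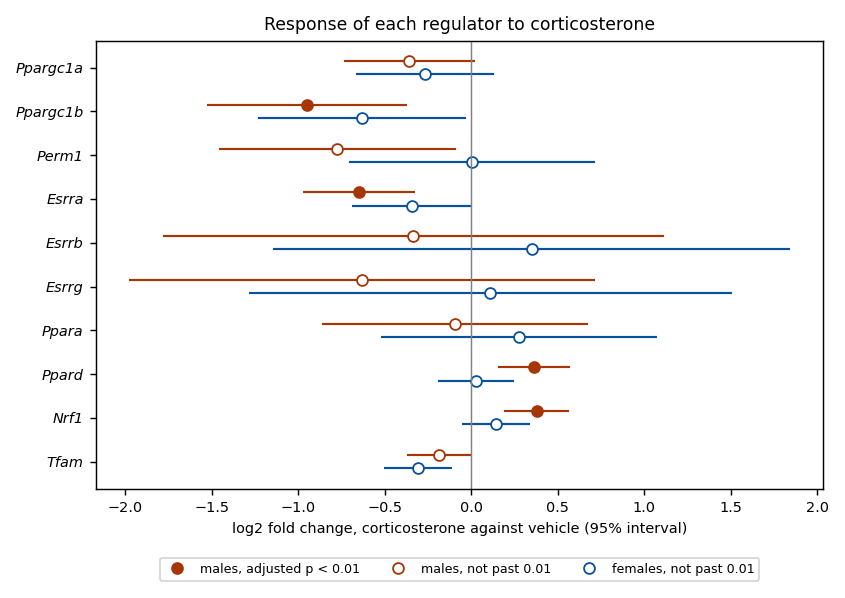
Log2 fold change of each regulator with corticosterone against vehicle (horizontal axis) and its 95% interval, in males (brown) and females (blue); filled points passed an adjusted p of 0.01 in edgeR's test. The intervals of Esrrb, Esrrg and Ppara are wide and span 0 in both sexes, and those of Nrf1, Ppard and Tfam are the narrowest.

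Of the ERRs, Esrra (chr19:6910977-6921813) gave the clearest difference. Its product ERRα is the main partner of PGC-1α on genes of respiration. Vehicle-treated males had 127 CPM (median 149) to 176 CPM and corticosterone-treated males 62.1 CPM (median 99.3) to 113 CPM, so that the groups did not overlap, with treated mice below. Such a separation was found in 11.1% of all genes tested. The mean fell from 149.5 ± 16.9 CPM (SD, n = 6) to 95.3 ± 17.2 CPM (n = 6), a log2FC of -0.65 (SE 0.16, adjusted p = 0.00241 in edgeR's test). M8 had the lowest value by far, and without it the log2FC was -0.55. The call held in 32 of 33 alternatives, with adjusted p up to 0.00843, and was lost only where the log2FC also had to exceed 1 in size. The microRNA gene Mir6990 shares 91 exon bases with Esrra on the same strand.

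Treated females had 63.7 CPM of Esrra in F6, 78.5 in F2, 89.2 in F4, 100.03 in F10 and 139 in F8, and vehicle-treated females had 96.7 CPM (median 115) to 144 CPM. F2, F4 and F6 were below the vehicle range, and F8 and F10 were within it. The female log2FC was -0.34 (SE 0.16, adjusted p = 0.126 in edgeR's test), and it ran from -0.53 without F8 to -0.24 without F6. The response of males differed from that of females by -0.30 (95% interval -0.77 to 0.16, adjusted p = 0.361 in edgeR's test), so a difference between the sexes was not shown. With vehicle, all 6 males lay above the female mean of 119.4 ± 18.7 CPM, a log2FC of 0.32 (unadjusted p = 0.0498, adjusted p = 0.379 in edgeR's test). With corticosterone the means were 95.3 CPM in males and 94.0 CPM in females.

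Esrrb (chr12:86361117-86521628) and Esrrg (chr1:187608791-188214885), whose products ERRβ and ERRγ bind the same element as ERRα, varied more between mice than between groups. Esrrb ran from 0.265 CPM in M8 to 14.5 CPM in F8, a 54.8-fold range, and Esrrg from 1.85 CPM in M8 to 47.3 CPM in M5, a 25.5-fold range. ERRγ is known from oxidative fibers. The SD within groups of Esrrb and Esrrg was 1.56 and 1.34 on the log2 scale, larger than that of 98.6% and 98.2% of the genes tested. The median over those genes was 0.241. Every group spanned at least 4.9-fold for Esrrb and 5.7-fold for Esrrg.

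Against this spread no treatment effect could be told. Esrrb had a log2FC of -0.33 in males (95% interval -1.78 to 1.11) and 0.35 in females (95% interval -1.14 to 1.84). Esrrg had -0.63 in males (95% interval -1.98 to 0.72) and 0.11 in females (95% interval -1.28 to 1.505). The directions were not stable, since the Esrrb value in males became 0.10 without M5 and both female values turned negative without F8. M10 held 36.0 CPM of Esrrg among treated males, where the other 5 held 1.85 to 14.1 CPM. Esrrb had 6 to 295 counts per mouse.

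The PPARs split in the same way. Ppara (chr15:85734983-85802819), the fatty acid sensor that drives oxidation genes, varied 5.97-fold over all mice, from 2.10 CPM in F9 to 12.5 CPM in F8. In males it ranged from 2.35 CPM (median 6.76) to 9.02 CPM with vehicle and from 3.001 CPM (median 5.44) to 10.7 CPM with corticosterone. These ranges were nearly the same, and the log2FC was -0.0960 (95% interval -0.86 to 0.67). Treated females had 3.56 CPM in F4, 5.002 in F2, 5.37 in F6, 9.38 in F10 and 12.5 in F8, against 2.10 CPM (median 6.05) to 8.34 CPM with vehicle, with a log2FC of 0.28 (95% interval -0.52 to 1.08).

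Ppard (chr17:28232700-28301474), whose product PPARδ is the most abundant PPAR of skeletal muscle, was tightly held and rose in males. Values ran from 23.6 CPM (median 27.4) to 30.5 CPM with vehicle and from 28.8 CPM (median 35.1) to 44.1 CPM with corticosterone. All 6 treated males were above the vehicle mean and 5 were above the whole vehicle range. The log2FC was 0.36 (SE 0.10, adjusted p = 0.00688 in edgeR's test). The call was lost in 10 of 33 alternatives, and leaving out M1, M3, M5, M11, M4, M8 or M10 was enough, with an adjusted p of at most 0.0240. Treated females had 23.9 CPM in F10, 28.8 in F6, 29.3 in F2, 30.5 in F8 and 31.7 in F4, all within the vehicle range of 23.8 CPM (median 27.6) to 32.6 CPM. The female log2FC was 0.028 (95% interval -0.19 to 0.25), and the responses of the sexes differed by 0.33 (95% interval 0.031 to 0.63, unadjusted p = 0.0323, adjusted p = 0.121 in edgeR's test). That was the smallest p of the 10 for a difference in response.

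Nrf1 (chr6:30047988-30153458) was the steadiest of the regulators and rose in males. Vehicle-treated males had 10.1 CPM (median 10.5) to 11.97 CPM and corticosterone-treated males 11.99 CPM (median 13.8) to 15.9 CPM. The groups did not overlap, although M5 and M4 met at the border, a separation found in 10.8% of all genes with treated mice above. The log2FC was 0.38 (SE 0.0903, adjusted p = 0.00216 in edgeR's test), a mean of 13.9 ± 1.38 CPM against 10.7 ± 0.645 CPM (SD, n = 6 each). Leaving out any 1 mouse kept the call. The adjusted p was 0.0239 without the libraries with liver transcripts and 0.0112 without those with little Myh2, with a log2FC of 0.36 and 0.37.

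Treated females had 8.78 CPM of Nrf1 in F2, 10.02 in F6, 10.8 in F10, 10.9 in F8 and 13.5 in F4, against 8.62 CPM (median 9.78) to 10.7 CPM with vehicle. F4 was above the others and the groups overlapped. The female log2FC was 0.14 (95% interval -0.0561 to 0.34, adjusted p = 0.289 in edgeR's test), and the difference between the responses was 0.24 (95% interval -0.0333 to 0.51, adjusted p = 0.210 in edgeR's test).

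Tfam (chr10:71225464-71238280) did not pass the threshold in either sex. In males, values ran from 43.3 CPM (median 45.65) to 48.5 CPM with vehicle and from 38.3 CPM (median 39.6) to 43.7 CPM with corticosterone. Only M10 reached the vehicle range, and the log2FC was -0.19 (SE 0.0906, adjusted p = 0.108 in edgeR's test). Treated females had 28.8 CPM in F6, 32.97 in F2, 37.2 in F10, 43.2 in F4 and 44.2 in F8, against 37.5 CPM (median 47.1) to 53.9 CPM with vehicle. All 5 were below the vehicle mean, F2, F6 and F10 below the vehicle range. The log2FC was -0.31 (SE 0.0954, adjusted p = 0.0205 in edgeR's test), and it passed 0.01 in limma-voom (adjusted p = 0.00109) and in edgeR without F3, F4 or F8. The responses of the sexes differed by 0.12 (95% interval -0.15 to 0.40).

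The fat tissue transcript Adipoq ran opposite to Tfam within groups. The 8 adipocyte markers summed to 274 to 6959 CPM in treated females, highest in F6, and to 286 to 2611 CPM in vehicle-treated females. In treated males they summed to 295 to 932 CPM. Within groups, over the 20 mice other than F9, M8 and M9, Tfam correlated with the adipocyte gene Adipoq at r = -0.72 (Spearman's rho -0.81), and at -0.75 without the 2 mice farthest from the median of Adipoq. Esrra gave r = -0.62 (rho -0.40, -0.71 without 2 mice). Without F6 the female log2FC of Tfam was -0.24, and without all 5 libraries with liver transcripts, which include F6, it was -0.22 (adjusted p = 0.1996 in edgeR's test). The part of fat tissue in the Tfam values was not tested.

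Between the sexes, 1 of the 10 passed. With vehicle none did, beside 0.958% of all genes, with 1 unadjusted p under 0.05 (Esrra, beside 13.2% of all genes) and no call by DESeq2 or limma-voom. With corticosterone Nrf1 was higher in males than in females, beside 23.3% of all genes past the threshold and 9.31% past it with higher levels in males, with a log2FC of 0.37 (SE 0.0949, adjusted p = 0.00471 in edgeR's test). All 6 treated males were above the female mean of 10.8 ± 1.73 CPM, but F4 at 13.5 CPM lay within the male range. This call was lost without F2, F6, M10 or M12, with an adjusted p up to 0.0171. It was also lost without the libraries with liver transcripts (adjusted p = 0.113) or with little Myh2 (0.0137). No regulator passed for the difference between the male and the female response, beside 0.69% of all genes, by edgeR, DESeq2 or limma-voom, and Ppard alone had an unadjusted p under 0.05, as had 32.1% of all genes. The 4 calls in males are thus not shown to differ from the females.

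Several regulators were high or low in the same mice. Among treated females, F8 had the highest value of 8 of the 10 and F6 the lowest of 7. M5 was highest for 8 among vehicle-treated males. F9, M9 and M8 were each lowest for 7 in their groups, and these are the 3 mice with little Myh2. In all 3 the lowest genes included Ppargc1a, Perm1, the 3 ERRs and Ppara. M8 and M9, by contrast, had the highest Ppard of their groups.

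**Figure D3:**
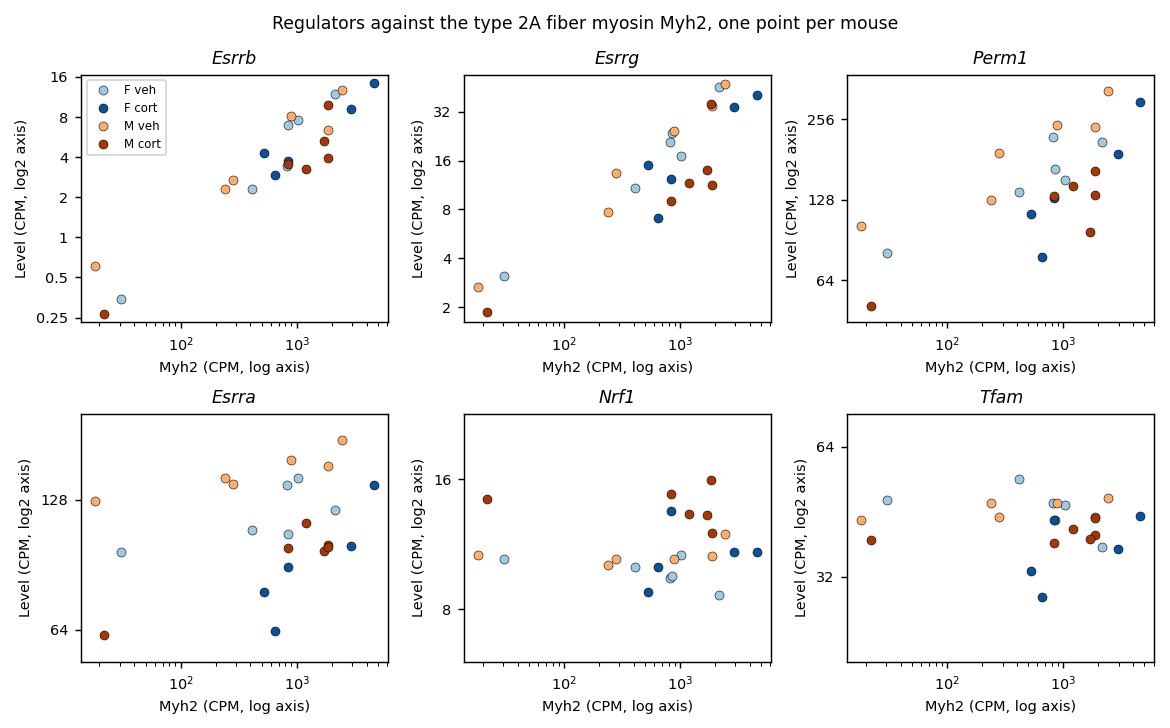
Level of 6 regulators (vertical axis, CPM on a log2 axis) against Myh2 (horizontal axis, CPM on a log axis), with each mouse a point coloured by group. Esrrb and Esrrg climb with Myh2 over the whole range and the 3 mice at the far left lie apart, while Nrf1 and Tfam stay level.

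Myh2 encodes the myosin of type 2A fibers and serves as their marker. Because F9, M8 and M9 stood apart, correlations were computed over the other 20 mice after removing group means, as a description. Esrrb and Myh2 had r = 0.88 (Spearman's rho 0.87), and Esrrg and Myh2 r = 0.88 (rho 0.83). Leaving out the 2 mice farthest from the median of Myh2 gave 0.83 for both. Ppargc1b (0.84, rho 0.79), Perm1 (0.80, rho 0.76) and Ppara (0.75, rho 0.75) followed, and without those 2 mice gave 0.77, 0.66 and 0.66. Esrra had r = 0.66 (rho 0.67, 0.54 without 2 mice) and Ppargc1a 0.63 (rho 0.56, 0.45 without 2 mice). Nrf1 (0.15, rho 0.24), Tfam (0.15, rho 0.20) and Ppard (-0.0567, rho -0.0376) did not follow Myh2. With the slow myosin Myh7, Esrrb had r = 0.73 and Esrrg 0.71. Ppara (0.39), Ppargc1b (0.38), Perm1 (0.28), Ppargc1a (0.21) and Esrra (0.07) had less. With the fast glycolytic myosin Myh4, Ppara had r = -0.74, Esrrb -0.63 and Esrrg -0.56. Which fiber type the regulators follow was not tested. All points share their libraries, so genes of one tissue component move together across them.

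Myh2 itself did not pass the threshold with corticosterone, its log2FC being 0.39 with an SE of 0.92 in males and 1.12 with an SE of 0.97 in females. The slow myosin Myh7 and the fast glycolytic myosin Myh4 did not pass either. Of the 6 markers of fast glycolytic fibers, Actn3 (log2FC 1.61, adjusted p = 7.52e-06 in edgeR's test) and Atp2a1 (0.81, adjusted p = 0.00038) rose in males and Pvalb fell by 0.81 (adjusted p = 0.00362). Pvalb also fell in females, with a log2FC of -1.03. Of the 4 fibroblast markers, the collagen genes Col1a1 (-3.26) and Col3a1 (-3.96) fell in males, and Col3a1 fell in females (-1.34). The other markers, Pdgfra and Dcn, did not pass in either sex. Their log2FC was -0.35 and -0.41 in males, and 0.15 and 0.26 in females. The summed level of the 4 in males was 302 to 463 CPM with corticosterone and 723 to 1045 CPM with vehicle. Of the 5 erythrocyte markers, Hba-a1, Hbb-bs, Hbb-bt and Alas2 rose in both sexes, with a summed level in males of 189 to 674 CPM with corticosterone and 104 to 204 CPM with vehicle. Of the 4 endothelial markers, Tek alone passed in males (-0.52), while Kdr (-0.59), Cdh5 (-0.39) and Pecam1 (0.21) did not. The part of these markers in the values of the regulators was not tested. Treated males had Myh2 between 22.0 and 1871 CPM and vehicle-treated males between 18.2 and 2436 CPM. Without the mice with little Myh2, Esrra in males had a log2FC of -0.60 (adjusted p = 0.00529 in edgeR's test). That of Ppargc1b was -0.86 (adjusted p = 0.0224) and the rise of Ppard 0.32 (adjusted p = 0.0222).

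**Figure D4:**
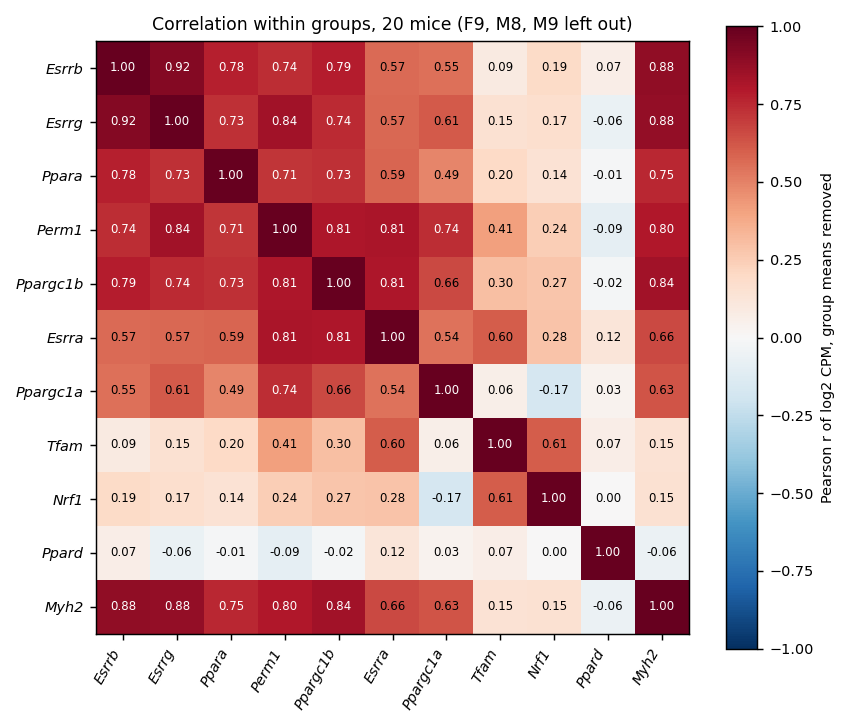
Pearson correlation of log2 CPM between the regulators and Myh2 over 20 mice, with group means removed and F9, M8 and M9 left out (colour scale from -1 to 1). A block of 7 regulators and Myh2 shares r of 0.49 to 0.92, while Tfam and Nrf1 pair with each other at 0.61 and Ppard stands alone.

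Among themselves the regulators fell into the same pattern. Esrrb and Esrrg had r = 0.92, Esrrg and Perm1 0.84, and Esrra had 0.81 with both Perm1 and Ppargc1b. Ppargc1a was closest to Perm1, at 0.74. Nrf1 and Tfam had r = 0.61 with each other (rho 0.65), and 0.48 without the 2 mice farthest from the median of Tfam. Tfam had 0.60 with Esrra (rho 0.52), and 0.19 without those 2 mice. No other regulator had an r with Ppard beyond 0.12.

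Over all 23 mice, with group differences and the 3 mice with little Myh2 included, the gene most like each regulator was often one of oxidative metabolism. For Esrra these were Mtfp1 (r = 0.96), which acts in mitochondrial fission, and the malate dehydrogenase Mdh2 (r = 0.95). Perm1 was most like Rtn4ip1 (r = 0.95) and the respiratory chain gene Cyc1 (r = 0.94). The lactate dehydrogenase Ldhb had r = 0.98 with Esrrb and 0.97 with Esrrg, and it was also the gene most like Ppara (r = 0.89). Klhl34 was closest to Esrrg (r = 0.97). Ppargc1a was most like hexokinase Hk2 (r = 0.86) and the isocitrate dehydrogenase subunit Idh3g (r = 0.84), and Ppargc1b most like the nucleotide receptor P2ry2 (r = 0.92) and Alkbh7 (r = 0.90). Ppard was closest to the ubiquitin ligase Rnf40 (r = 0.87) and Nrf1 to the peptidase Tpp2 (r = 0.88). The kinase gene Mapk8 had r = 0.91 with Tfam.

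Among genes that act on the mitochondrial DNA beside Tfam, 2 of 17 tested rose and 2 fell in males, and none of 17 passed in females. Of all genes tested, 26.3% passed in males and 13.4% in females. The RNA polymerase of mitochondria Polrmt rose from 25.1 ± 1.70 to 32.9 ± 2.81 CPM in males (log2FC 0.39, adjusted p = 0.000551 in edgeR's test) and the DNA polymerase Polg from 36.7 ± 1.60 to 47.4 ± 3.80 CPM (log2FC 0.37, adjusted p = 4.98e-05). Both groups of 6 males were separate for each gene, with treated mice above, as in 10.8% of all genes. The topoisomerase Top1mt fell by 0.28 on the log2 scale and the primase Primpol by 0.87. For both, all treated males lay below the vehicle range, as in 11.1% of all genes. Primpol was scarce, at 0.970 to 1.90 CPM in treated and 2.32 to 3.32 CPM in vehicle-treated males. In females Top1mt had a log2FC of -0.27 (adjusted p = 0.0165 in edgeR's test) and Primpol 0.072. The difference in response had an adjusted p of 0.948 for Top1mt and 0.0444 for Primpol. The female log2FC was -0.17 for Polrmt and 0.062 for Polg. The difference between the male and the female response of these 2 genes had an adjusted p of 0.0104 and 0.0274 in edgeR's test. The median log2FC of the list was -0.0116 in males and -0.0848 in females.

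Of 21 signals and repressors that act on PGC-1α, 4 rose and 2 fell in males, against 26.3% of all genes past the threshold, and 3 fell in females, against 13.4%. Tfeb, a lysosomal regulator that can induce Ppargc1a, rose from 72.3 ± 8.04 to 149 ± 27.4 CPM in males, a log2FC of 1.04 (adjusted p = 2.33e-05 in edgeR's test), and had a log2FC of -0.13 in females. It was the member of the lists whose response passed for a difference between the sexes, at 1.17 (SE 0.22, adjusted p = 0.00806). The deacetylase Sirt1, which activates PGC-1α, rose by a log2FC of 0.43 in males, and so did the corepressor Nrip1 (0.81) and the kinase Mapk14 (0.43). Fnip1 and Flcn, partners that restrain energy signalling and Tfeb-family factors, fell in both sexes. Fnip1 had a log2FC of -0.93 in males and -0.70 in females, and Flcn -0.52 and -0.76. Ppp3ca, a calcineurin subunit, fell in females (-0.73).

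Of 20 partner transcription factors and coactivators, 4 rose in males, where 13.2% of all genes rose, and none passed in females, where 13.4% passed. They were Rxra (log2FC 0.56, adjusted p = 0.000354 in edgeR's test), the dimer partner of the PPARs, the zinc finger factor Zfp143 (0.52), the PGC-1 relative Pprc1 (0.46) and Sp1 (0.31). Rxra was at 273.8 CPM or more in every treated male and at most 241.5 CPM in every vehicle-treated male. Such a separation, with treated mice above, was found in 10.8% of all genes. The median of the list was 0.11 in males and -0.0121 in females.

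Of 21 known targets of PGC-1α and the ERRs, 1 passed the test in males, against 26.3% of all genes. The angiogenic factor Vegfa fell, from 196 ± 35.1 to 101 ± 25.6 CPM (log2FC -0.97, adjusted p = 0.000327 in edgeR's test), and the other 20 did not pass. Their values included -0.55 for cytochrome c (Cycs, adjusted p = 0.0109) and -0.37 for Mdh2 (adjusted p = 0.0294). The list had a median log2FC of -0.38 in males and -0.14 in females, where none of 21 passed, against 13.4% of all genes.

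The 19 PPAR targets tested had a median log2FC of 0.12 in males and 0.49 in females, and none fell past the threshold in either sex. Those that rose in females included Angptl4, which inhibits lipoprotein lipase (19.1 ± 9.26 to 111 ± 46.5 CPM, log2FC 2.55, adjusted p = 4.47e-05 in edgeR's test), the lipid droplet protein Plin2 (1.55) and the fatty acid transporter Cd36 (1.39). In males Angptl4 had a log2FC of 0.57 (adjusted p = 0.176), Plin2 -0.10 and Cd36 0.42, and none of these passed. None of the differences between the male and the female response passed 0.01 (Angptl4 -1.98, adjusted p = 0.0176 in edgeR's test). Angptl4, Cd36 and Plin2 are also expressed in fat. Of the 8 adipocyte markers, Lep alone passed in females (log2FC 6.79, adjusted p = 0.000284 in edgeR's test). Adipoq (2.08, adjusted p = 0.0846) and Plin1 (2.67, adjusted p = 0.0423) did not, and Cfd alone had a negative log2FC (-0.77). The part of fat tissue in these values was not tested. Of 16 genes of mitochondrial fusion, fission and import, the fission gene Dnm1l fell in males (log2FC -0.37, adjusted p = 0.00250 in edgeR's test), where 13.1% of all genes fell, and none passed in females.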

How the data were processed

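Quadriceps RNA of 23 mice in 4 groups was compared. Per the labels and the methods, the authors aligned read pairs to mm10 with STAR 2.7.3a and counted those unique to 1 gene, by strand, with HTSeq 0.12.4 and Ensembl 97. The deposited values are raw counts per gene, and 10.7% to 15.3% of read pairs, in 5 summary rows, were not assigned to genes and were left out here. Names and exon lengths came from GENCODE M21 (55480 IDs matched). Joint processing of the sexes is not given in the sources used here, so a batch cannot be told apart from sex in comparisons between the sexes.

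Counts were tested with edgeR 4.0.16 (quasi-likelihood, TMM) in R 4.3.3, in 1 model with a mean per group, over 13049 genes with more than 20 normalized counts in at least 4 mice of a group, with Benjamini-Hochberg adjustment over these genes and a threshold of 0.01. Intervals are 95% intervals of the model. Alternatives used DESeq2 1.42.0, which the study names, limma-voom (limma 3.58.1), median of ratios, 2 other filters, each sex alone, other call rules, a replicate block and leaving out each mouse; leaving out libraries with liver transcripts or with little Myh2 was chosen after seeing the data. Log2 CPM used a prior count of 1. No pair of replicates agreed within sampling noise (lowest chi-square per degree of freedom 13.2). P-values measure the spread between mice. The scripts were tested on simulated data. The named genes are all 10 regulators, the lists' genes past the threshold and the genes most like each regulator, of which a few are not reported here; members and lists were chosen with earlier results of these data known.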

Additional observations from a re-analysis of the deposited data

Results flagged for a closer look

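In 3 of 40 groups of 5 or 6 mice, the highest or the lowest mouse lay so far from the next that its gap exceeded the 95% critical value of Dixon's test. Chance alone gives about 1 in 20 groups. M8 had the lowest Esrra of the corticosterone-treated males, 62.1 CPM, with a gap of 0.69 of the range of the group. It is among the libraries with liver transcripts and with little Myh2. M10 had the highest Esrrg of the same group, 36.0 CPM, with a gap of 0.64 of the range. M5 had the highest Nrf1 of the vehicle-treated males, 11.97 CPM, with a gap of 0.71 of the range, just below the lowest corticosterone-treated male at 11.99 CPM.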

How the results depend on the processing

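The falls of Esrra and Ppargc1b and the rises of Nrf1 and Ppard in males kept their direction in all 33 alternatives. Their number past the threshold was 2 with no filter and without the liver libraries, 1 without the libraries with little Myh2, 0 with a log2FC beyond 1 in size, and 2 to 4 on leaving out 1 mouse. The filters and smaller sets change the genes or mice tested, and the other causes were not tested. In females it was 1 with limma-voom or at 0.05, and 0 to 1 without 1 mouse. Between treated males and females it was 0 without the liver libraries, without those with little Myh2 or beyond 1, 2 at 0.05, and 0 to 1 without 1 mouse. Over all genes, 0.05 gave 5191 (males), 3485 (females), 1648 (difference in response), 309 (sexes, vehicle) and 5095 (sexes, corticosterone), and the limit of 1 gave 982, 732, 40, 75 and 1014. Females gave 561 fitted alone, 460 without the liver libraries and 1004 to 2359 without 1 mouse. The difference in response gave 896 with DESeq2, 693 with limma-voom, 10 with no filter, 3 without the liver libraries, 2 without those with little Myh2 and 1 to 893 without 1 mouse. The sexes gave 284 with DESeq2 under vehicle, and 290 without the liver libraries and 1885 to 3742 without 1 mouse under corticosterone.

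Several log2FC values changed sign, not all of them near 0 in the main test (Ppargc1b, difference in response, -0.32). With limma-voom they were 0.0056 (Esrrb, males), -0.27 (Perm1, females), 0.0055 (Ppargc1b, difference in response), and -0.13 (Esrrb), -0.15 (Esrrg) and -0.0527 (Ppara) between vehicle-treated sexes. Without the libraries with little Myh2 they were -0.13 (Perm1, females), -0.11 (Esrrg, females), -0.0030 (Esrrb, sexes, vehicle) and 0.0145 (Tfam, sexes, vehicle). Perm1 in females was -0.0081 with filterByExpr, -0.0223 with no filter and -0.0138 fitted alone, and Ppard in females was -0.0101 with no filter. On leaving out 1 mouse, ranges that span 0 were in males -0.76 to 0.0998 (Esrrb) and -0.35 to 0.0405 (Ppara), in females -0.34 to 0.17 (Perm1), -0.10 to 0.75 (Esrrb), -0.23 to 0.53 (Esrrg), -0.0194 to 0.45 (Ppara) and -0.0175 to 0.0741 (Ppard), in the difference in response -0.22 to 0.0354 (Ppargc1a), between the sexes with vehicle -0.43 to 0.40 (Esrrb), -0.29 to 0.51 (Esrrg), -0.083 to 0.26 (Ppara), -0.0806 to 0.00968 (Ppard) and -0.0701 to 0.037 (Tfam), between the sexes with corticosterone -0.0735 to 0.20 (Esrra) and -0.54 to 0.0142 (Ppara).

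Replicate numbers shared by males and females were not taken as pairs in the main test. The correlation of same-numbered mice ran from -0.38 to 0.48, over 0.1 in 7 of 11 pairs, and 4 of 11 correlated best with their own number. With so few pairs, these values cannot settle whether the numbers mark a shared block. With a replicate block 0 regulators differed between treated sexes (Nrf1, adjusted p = 0.0262), and Esrrg between vehicle-treated sexes was -0.0339. Esrrb, Ppargc1b and Ppara had at most 295, 218 and 255 counts in a mouse.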
